A study of Mus musculus with 24 samples.

Results

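To examine whether additions to an obesogenic diet were reflected in the contractile machinery of fast muscle fibres, 10 genes of these fibres were followed in the gastrocnemius of male C57BL/6N mice. The genes were Myh1, Myh2, Myh4, Mylpf, Tnnc2, Tnni2, Tnnt3, Actn3, Atp2a1 and Pvalb, and they were taken by symbol, with every probe that the array holds for them. This gave 17 of 41174 probes, all of which were among the 15958 probes bright enough to be compared. All mice were 3 months old at the start and ate for 8 weeks a high-fat diet based on corn oil, with 35% lipids by weight. The cHF mice (n = 8) received this diet alone. The cHF+F mice (n = 8) had 15% of these lipids exchanged for a concentrate rich in n-3 LC-PUFA, the long-chain fatty acids of fish oil, of which DHA made up 46% and EPA 14%. The cHF+ROSI mice (n = 8) received 10 mg rosiglitazone, an anti-diabetic thiazolidinedione, per kg diet. Before dissection, mice of every group were fasted for 10 hours and then offered Chow overnight, so that no group shows the muscle during high-fat feeding itself. Each animal was hybridised on its own array in Cy5 against 1 common Cy3 pool of gastrocnemius RNA, which also held mice on a higher rosiglitazone dose that were not analysed here. A value below is therefore a log2 ratio of 1 animal over the pool, and a change is a difference between mean log2 ratios.

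Skeletal muscle fibres differ in speed and in fuel use. Slow fibres shorten slowly, are rich in mitochondria and contain the type I myosin heavy chain, whereas fast fibres contain the type IIa, IIx or IIb chain, in the order of rising speed and falling oxidative capacity. Within the sarcomere, myosin pulls on actin filaments once calcium, released from the sarcoplasmic reticulum, binds to troponin and moves tropomyosin aside. Fast and slow fibres use different genes for nearly every step of this process, and the mouse gastrocnemius is dominated by fast fibres. Because whole muscle was extracted, fewer fast fibres and less RNA per fibre cannot be told apart in these values.

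The 3 heavy chain genes lie side by side on chromosome 11. Myh2 encodes the type IIa chain, Myh1 the type IIx chain and Myh4 the type IIb chain. Their promoters are shown since these neighbouring genes share a stretch of letters. Each line gives the 250 bases before the start of the gene on GRCm38.p6, plus strand, in lower case, with the shared run of 20 bases in capitals. The Myh2 promoter lies at chr11:67170777-67171026, that of Myh1 at chr11:67199852-67200101 and that of Myh4 at chr11:67237562-67237811.
Myh2: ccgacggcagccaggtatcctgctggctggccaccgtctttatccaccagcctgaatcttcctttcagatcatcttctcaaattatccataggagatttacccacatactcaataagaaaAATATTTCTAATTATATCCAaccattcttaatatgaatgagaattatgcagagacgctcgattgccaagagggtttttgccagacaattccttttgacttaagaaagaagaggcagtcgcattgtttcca
Myh1: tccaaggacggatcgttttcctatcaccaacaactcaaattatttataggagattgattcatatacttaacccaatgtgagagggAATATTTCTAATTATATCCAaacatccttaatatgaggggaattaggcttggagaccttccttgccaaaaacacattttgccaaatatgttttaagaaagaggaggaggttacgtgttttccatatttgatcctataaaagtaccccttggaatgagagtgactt
Myh4: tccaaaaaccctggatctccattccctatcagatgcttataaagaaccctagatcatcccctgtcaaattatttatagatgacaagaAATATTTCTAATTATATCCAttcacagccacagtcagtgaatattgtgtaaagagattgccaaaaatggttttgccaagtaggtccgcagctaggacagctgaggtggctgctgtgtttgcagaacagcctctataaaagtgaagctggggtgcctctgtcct

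The shared run begins 130 bases before the start of Myh2, 165 before that of Myh1 and 163 before that of Myh4, and was found in no other of the 32851 promoters of the same length. Myh1 and Myh4 shared more letters with each other than Myh2 shared with Myh4. In runs of at least 10 bases, 55 bases of Myh1 (22.0%) recurred in Myh4 and 61 (24.4%) recurred in Myh2, whereas only 21 bases of Myh2 (8.4%) recurred in Myh4. A TATA box (TATAAA, searched on both strands, as were all motifs) stood 32 bases before the start of Myh1 and 31 bases before that of Myh4 and was not among the letters of the Myh2 window. It occurred in 12.4% of all promoters. The letters of a MEF2 site, the motif of the MEF2 factors of muscle, were present 211 bases before Myh1, 182 before Myh4 and 180 before the first of 2 entries for Pvalb, against 2.92% of all promoters, and in Myh1 and Myh4 they overlapped a further TATAAA. A CArG box, the motif of serum response factor, stood 104 bases before Myh4 and occurred in 1.47% of all promoters. The E-box (CANNTG), bound by MyoD and related factors, was found in the windows of Myh4, Tnnc2, Mylpf, Atp2a1 and the second Pvalb entry and is common, with a share of 66.2%. These motifs were searched in the 8 entries that matched 7 of the 10 genes. No entry matched Tnni2, Tnnt3 or Actn3.

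The genes are among the most abundant messengers of muscle, and 15 of the 17 probes belonged to the brightest 1% of all probes. Each gene was represented by its brightest probe, and the mean log2 intensity of these 10 probes lay between 15.06 for Pvalb and 17.02 for Tnni2. At such brightness a scanner can saturate and a dye curve can bend, so both were examined first. All 24 arrays had been read with an extended dynamic range, which joins a sensitive and an insensitive scan. Not 1 of the 408 member spots per channel was saturated or carried a quality flag. The highest member signal was 463833 in Cy5 and 111529 in Cy3, against saturation values of at least 632871 and 631612. All probes were well above background on 24 of 24 arrays in both dyes apart from the dimmest Myh1 probe, A_52_P257638, with 23 arrays in Cy5 and 21 in Cy3. The defining markers of the tissue were present, with 8 of 8 fibre markers well above background on every array. Of these, Myh1, Myh2 and Myh4 are themselves members, while Ckm, Acta1, Mb, Des and Myh7 are not.

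Brightness differed between slides. Every slide held 1 array of each diet, in the same order, so that place on the slide and diet cannot be told apart, while slide and diet can. Before normalisation, the median Cy5 signal of the member probes was log2 13.3 to 16.8 on the 9 arrays of slides 1 to 3 and log2 17.8 to 18.1 on the 15 arrays of slides 4 to 8. After normalisation by loess with a span of 0.3, the mean of the 10 genes was -0.84 to 0.16 on slides 1 to 3 and 0.13 to 0.46 on slides 4 to 8. With a loess span of 0.1, which follows the bright end more closely, the ranges were -0.03 to 0.23 and 0.09 to 0.38. All 17 probes had a lower mean on slides 1 to 3 with either span.

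One array held the lowest cHF+ROSI value of every gene. On this array, that of cHF+ROSI mouse 3, the mean of the 10 genes was -0.84, with 10 of 10 genes below 0. The 124 other bright probes of that array, none of them from a member gene, had a median of -0.75, against -0.23 to 0.19 on the remaining 23 arrays. With a span of 0.1 the mean of the 10 genes on this array became 0.16, with 3 of 10 genes below 0, and the median of the other bright probes became 0.07, within the range of -0.03 to 0.12 of the remaining arrays. The array of cHF+ROSI mouse 4 differed in another respect, in that 91.1% of its spots were well above background in Cy5, against 30.4% to 61.3% on the others.

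**Figure D1:**
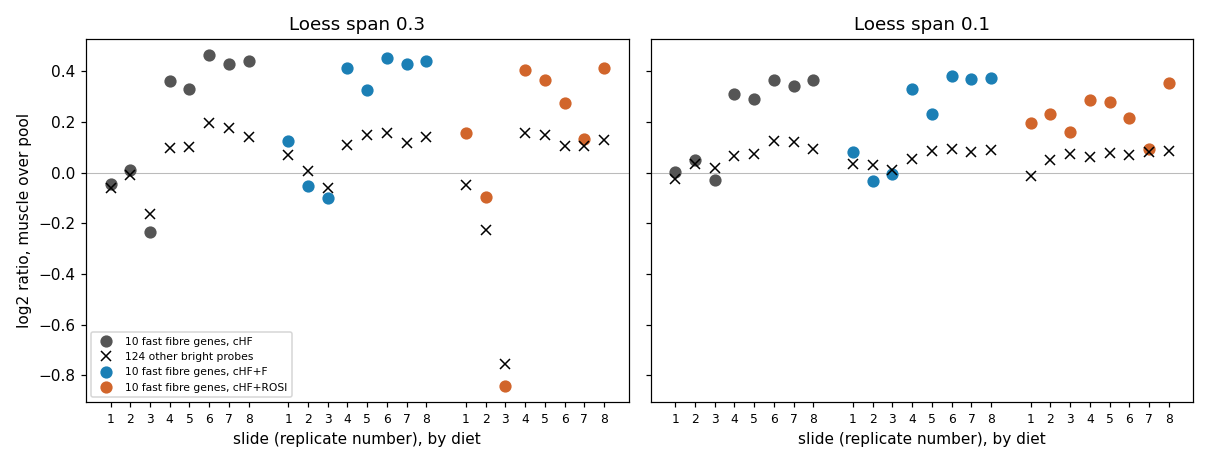
Mean log2 ratio of the 10 fast fibre genes (filled circles, coloured by diet) and median log2 ratio of the 124 other bright probes (crosses) on each of the 24 arrays, by diet and slide, after loess with a span of 0.3 (left) or 0.1 (right). With the wider span the array of cHF+ROSI mouse 3 lies at -0.84, and with the narrower span at 0.16.

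No member probe was called between the diets. At an adjusted p under 0.05 (limma, Benjamini-Hochberg over 15958 probes), 0 of 17 member probes were called for cHF+F versus cHF, where 0% of all probes were called. The count was also 0 of 17 for cHF+ROSI versus cHF and for cHF+F versus cHF+ROSI, each again against 0% of all probes. The lowest adjusted p of a member probe was 0.899, 0.996 and 0.812 in this order. At an unadjusted p under 0.05 the numbers of member probes were 0, 0 and 0, against 6.87%, 4.71% and 6.65% of all probes. At the same unadjusted threshold, the methods' t-test likewise gave 0 member probes in each comparison and 1265, 754 and 937 probes over the whole array, of which 0 remained after Benjamini-Hochberg adjustment. The groups overlapped for all 17 member probes in each comparison. Over the whole array 11, 3 and 6 probes had groups that did not overlap, which is 0.0689%, 0.0188% and 0.0376% of all probes, so that 0 of 17 is near this background. With the slide as a block, 1, 2 and 6 of the 17 probes had an unadjusted p under 0.05, against 12.2%, 9.54% and 13.1% of all probes. The 6 probes for cHF+F versus cHF+ROSI belonged to Myh4, Tnnt3, Mylpf and Actn3 and were higher in the cHF+F mice, with a lowest adjusted p of 0.242 (limma) for Actn3. The changes of these 4 genes with the span of 0.1 were -0.0015, 0.02, 0.10 and 0.05 in this comparison. The comparisons with cHF share its 8 arrays, and the values below are given side by side for that reason.

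The intervals show what size of difference the fit without a block leaves possible. In the fit with a span of 0.3, the 95% interval of the change lay within 1.5-fold in either direction for 9 of 10 genes for cHF+F versus cHF, 8 of 10 for cHF+ROSI versus cHF and 9 of 10 for cHF+F versus cHF+ROSI. The exceptions were Myh2 in both comparisons with cHF, Myh1 for cHF+ROSI versus cHF and Mylpf for cHF+F versus cHF+ROSI. With a span of 0.1 all 10 intervals lay within 1.5-fold in every comparison. The end farthest from no change was that of Myh2 for cHF+F versus cHF, with an interval from 0.669-fold to 1.07-fold. With the slide as a block and a span of 0.3, all 10 intervals also lay within 1.5-fold in every comparison. The exceptions named above thus hold only for the fit without a block.

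**Figure D2:**
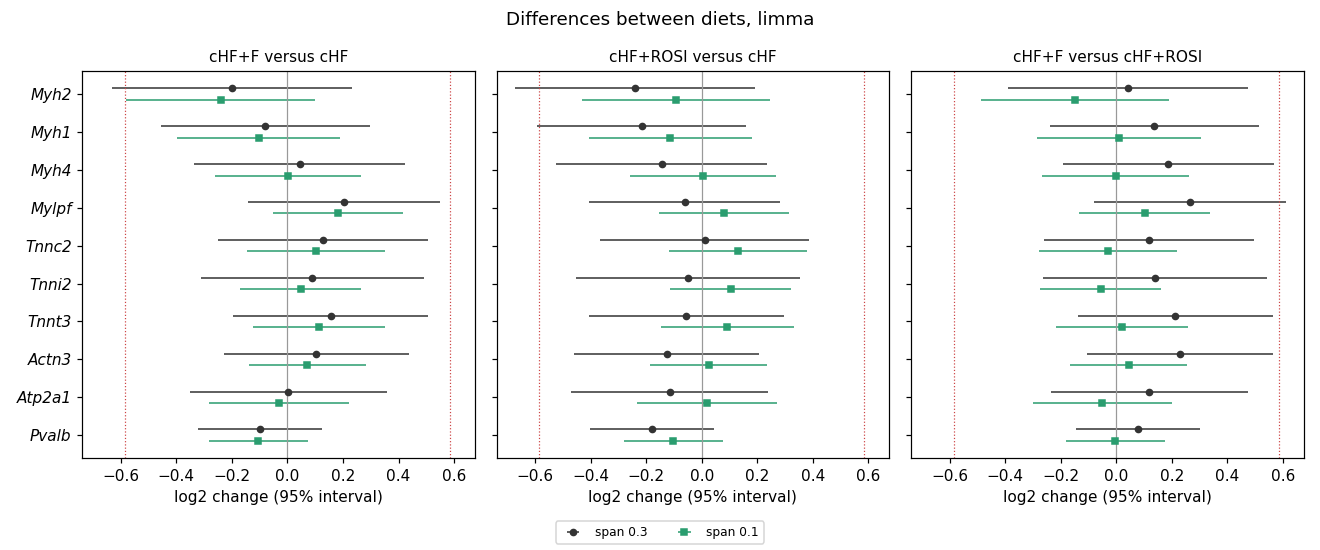
Change of each fast fibre gene on the log2 scale with its 95% interval (limma) for the 3 comparisons, after loess with a span of 0.3 (dark circles) or 0.1 (green squares), with 1.5-fold in either direction marked by dotted lines. All intervals include 0, and those of the narrower span stay within 1.5-fold.

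Myosin heavy chains set the speed of a fibre, and Myh2 marks its most oxidative fast type. In the cHF mice the log2 ratio of Myh2 (probe A_51_P225134, chr11:67013603-67013662 on mm8) ranged from -0.12 to 0.98 with a median of 0.39. In the cHF+F mice it ranged from -0.38 to 0.43 with a median of 0.22. In the cHF+ROSI mice it ranged from -0.86 to 0.85 with a median of 0.15. The diets overlapped in part, with cHF values of up to 0.98 above the highest cHF+F value of 0.43. The cHF+ROSI mice were the most scattered, with 4 animals between 0.40 and 0.85 and 4 between -0.86 and -0.11. The change of Myh2 was -0.20 ± 0.21 (SE) for cHF+F versus cHF (adjusted p = 0.949, limma) and -0.24 ± 0.21 for cHF+ROSI versus cHF (adjusted p = 0.996, limma). Within slides, the cHF+F mouse had the lower Myh2 ratio on 7 of 8 slides, by a median of -0.20, while for rosiglitazone the slides were divided 4 to 4. With a span of 0.1 the change was -0.24 ± 0.17 for cHF+F, again lower on 7 of 8 slides, and -0.09 ± 0.17 for cHF+ROSI.

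Myh1 encodes the IIx chain, which is faster and less oxidative than that of Myh2. The brightest Myh1 probe (A_51_P192042, chr11:67040631-67040690) gave ratios between -0.07 and 0.70 (median 0.27) in the cHF mice. The range was -0.19 to 0.49 (median 0.29) in the cHF+F mice. It was -0.995 to 0.73 (median 0.16) in the cHF+ROSI mice. The lowest and the highest Myh1 value of the experiment thus both came from the rosiglitazone group, and the other groups fell between them. The change was -0.08 ± 0.18 (SE) for cHF+F versus cHF and -0.22 ± 0.18 for cHF+ROSI versus cHF, with 4 of 8 slides lower in each case. These values became, with a span of 0.1, -0.10 ± 0.14 and -0.11 ± 0.14, and in Cy5 alone both were above 0 (0.06 and 0.23).

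Myh4 encodes the IIb chain of the fastest, most glycolytic fibres, the main fibre type of this muscle. For Myh4 (A_52_P602147, chr11:67075497-67075556) the cHF mice lay between -0.26 and 0.92 with a median of 0.68. The cHF+F mice lay between 0.07 and 0.91 with a median of 0.66. The cHF+ROSI mice lay between -0.54 and 0.90 with a median of 0.46. The 6 Myh4 values below 0.3 came from slides 1 and 3, with 1 of each diet on either slide, and the upper ends of the 3 diets were alike. The change was 0.04 ± 0.18 (SE) for cHF+F versus cHF and -0.14 ± 0.18 for cHF+ROSI versus cHF. The changes with a span of 0.1 were 0.0024 ± 0.13 and 0.0040 ± 0.13, with means of 0.53, 0.54 and 0.54 in the order cHF, cHF+F and cHF+ROSI, and 95% intervals of 0.834-fold to 1.203-fold and 0.835-fold to 1.204-fold.

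**Figure D3:**
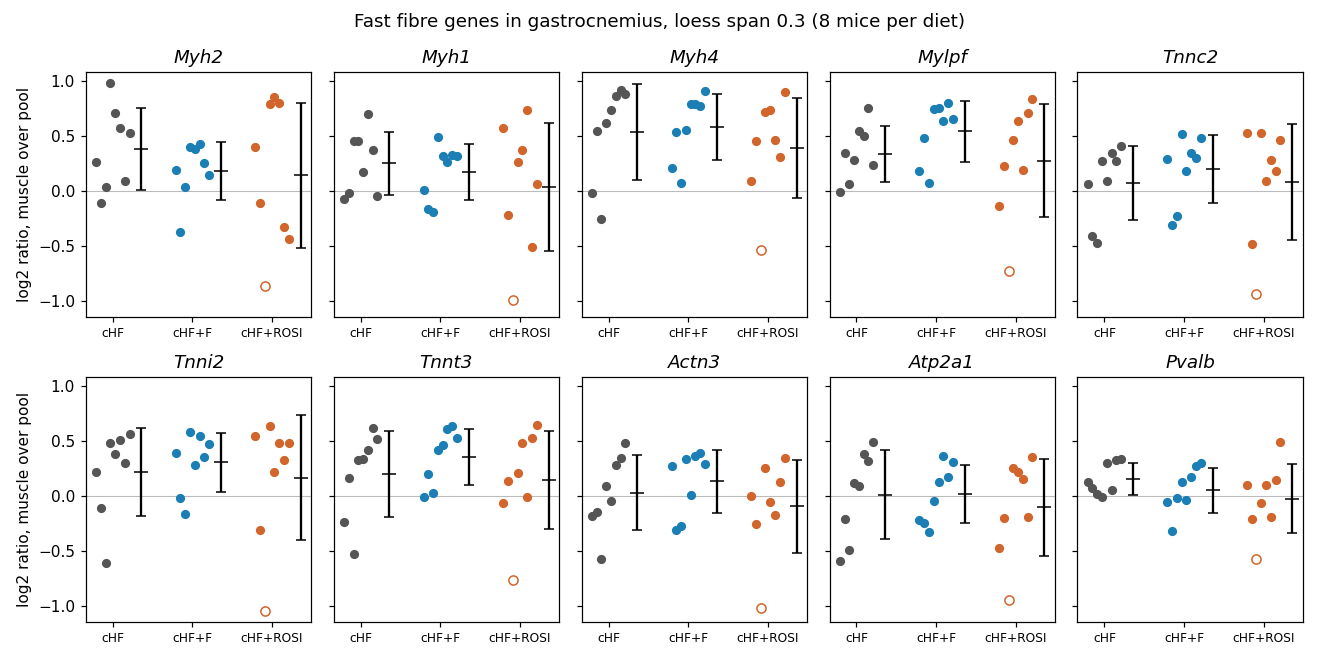
Log2 ratio of animal over pool for each of the 10 fast fibre genes in the 8 mice of each diet (loess span 0.3), with the mean and SD as a bar beside the points and cHF+ROSI mouse 3 as an open circle. The diets overlap in every panel, and the open circle is the lowest cHF+ROSI value of each gene.

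Mylpf encodes the fast regulatory light chain that sits on the neck of the myosin head and is phosphorylated during repeated contraction. Its log2 ratio (A_52_P383572, chr7:127004383-127004619) ranged from -0.01 to 0.75 (median 0.31) in the cHF mice. It ranged from 0.07 to 0.80 (median 0.64) in the cHF+F mice. It ranged from -0.73 to 0.84 (median 0.34) in the cHF+ROSI mice. The middle of the cHF+F mice was thus above that of both other groups, yet nearly all their values fell inside the cHF range. The change for cHF+F versus cHF, 0.20 ± 0.17 (SE; adjusted p = 0.917, limma), was the largest upward value among the members, and the cHF+F mouse was the higher on 8 of 8 slides by 0.01 to 0.46. With the slide as a block the unadjusted p was 0.0461 (limma) and the adjusted p 0.401. The span of 0.1 gave 0.18 ± 0.11 and 7 of 8 slides. Against cHF+ROSI, the cHF+F mean of Mylpf was higher by 0.27 ± 0.17, which became 0.10 ± 0.11 with a span of 0.1 and -0.09 in Cy5 alone.

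The troponin complex is the calcium switch of the thin filament. Tnnc2 is its fast calcium-binding subunit, Tnni2 the fast inhibitory subunit and Tnnt3 the fast subunit that anchors the complex to tropomyosin. The Tnnc2 ratio (A_51_P353232, chr2:164468366-164468425) had medians of 0.18, 0.30 and 0.23 in the cHF, cHF+F and cHF+ROSI mice, and the outermost values of the 24 arrays were -0.94 and 0.53, both in the cHF+ROSI group. Its change was 0.13 ± 0.18 (SE) for cHF+F versus cHF and 0.01 ± 0.18 for cHF+ROSI versus cHF. The Tnnc2 ratio was higher in the cHF+F mouse on 8 of 8 slides with either span, by a median of 0.09 with both. The slides differed by more than the diets, with a Tnnc2 mean of -0.55 on slide 3 and 0.45 on slide 8. With a span of 0.1 the Tnnc2 means were 0.06, 0.16 and 0.19 in the cHF, cHF+F and cHF+ROSI mice. The slide block was combined with this span after seeing the data. The unadjusted p of Tnnc2 was then 0.0524 (limma) for cHF+F versus cHF, with an adjusted p of 0.39. For cHF+ROSI versus cHF the change in that fit was 0.13, with an unadjusted p of 0.0157 (limma) and an adjusted p of 0.437.

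Tnni2 was the brightest of the 10 genes (A_51_P355122, chr7:142253726-142253785). Its ratio ranged from -0.61 to 0.57 in the cHF mice, from -0.16 to 0.58 in the cHF+F mice and from -1.04 to 0.64 in the cHF+ROSI mice, with medians of 0.34, 0.38 and 0.40. The upper ends were again alike, and the lowest array of each diet came from slide 3. The change of Tnni2 was 0.09 ± 0.20 (SE) for cHF+F versus cHF and -0.05 ± 0.20 for cHF+ROSI versus cHF. The second value was 0.10 ± 0.11 with a span of 0.1. The brighter Tnnt3 probe (A_52_P622418, chr7:142321739-142321964) had medians of 0.33, 0.44 and 0.17 in the same order and changes of 0.16 ± 0.17 and -0.06 ± 0.17. It was the higher in the cHF+F mouse on 8 of 8 slides with both spans, by as little as 0.0061 and 0.0037 on the closest slide. Its second probe (A_51_P345699, chr7:142321985-142323747) gave 0.05 ± 0.17 and -0.15 ± 0.17.

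Actn3 encodes the alpha-actinin of the Z disc that is specific to fast fibres, where it cross-links actin filaments of neighbouring sarcomeres. Its ratio (A_52_P656699, chr19:4861727-4862212) ranged from -0.57 to 0.49 in the cHF mice, -0.31 to 0.39 in the cHF+F mice and -1.02 to 0.34 in the cHF+ROSI mice. The lowest value was that of cHF+ROSI mouse 3, and the next value of its group was -0.25. The Actn3 change was 0.10 ± 0.16 (SE) for cHF+F versus cHF and -0.13 ± 0.16 for cHF+ROSI versus cHF. Without that array the latter was 0.00520, and with a span of 0.1 it was 0.03 ± 0.10.

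Relaxation requires that calcium be taken out of the cytosol. Atp2a1 encodes SERCA1, the calcium pump of the fast sarcoplasmic reticulum, and Pvalb encodes parvalbumin, a soluble protein that buffers calcium in the fastest fibres. The Atp2a1 ratio (A_52_P686130, chr7:126237732-126238075) had medians of 0.10, 0.04 and -0.02 in the cHF, cHF+F and cHF+ROSI mice and changes of 0.0032 ± 0.17 (SE) and -0.12 ± 0.17. Its values were set largely by the slide, from a mean of -0.59 on slide 3 to 0.39 on slide 8. Pvalb (A_51_P500156, chr15:78018472-78018531) had the smallest SD within diets of the 10 log2 ratios, 0.23 against 0.46 for Myh2. With slide means removed its SD of 0.164 was matched by Tnnc2 (0.161) and Myh4 (0.163), and in Cy5 alone its SD of 1.06 was the largest of the 10. Its ratio ranged from -0.01 to 0.34 in the cHF mice, from -0.32 to 0.30 in the cHF+F mice and from -0.57 to 0.49 in the cHF+ROSI mice. The 8 cHF values lay close together. The cHF+F mice reached below them and the cHF+ROSI mice lay on both sides of them. The Pvalb change was -0.10 ± 0.11 for cHF+F versus cHF and -0.18 ± 0.11 for cHF+ROSI versus cHF, with the cHF+ROSI mouse the lower on 7 of 8 slides. With the slide as a block the unadjusted p of the latter was 0.0298 (limma) and the adjusted p 0.471, and with a span of 0.1 the change was -0.10 ± 0.09, again on 7 of 8 slides.

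Over the 10 genes the median change was 0.07 for cHF+F versus cHF, with 7 genes above 0, against 50.3% of all probes above 0 and a median of 0.00049 over all probes. It was -0.12 for cHF+ROSI versus cHF, with 9 genes and 16 of 17 probes below 0, where 45.6% of all probes were above 0 and the overall median was -0.0082. The count did not hold with the narrower span, with which the median was 0.02 and 3 of 10 genes were below 0, against 47% of all probes above 0. The 124 other bright probes had a median change of -0.11 in this comparison with a span of 0.3 and of 0.0054 with a span of 0.1. Without cHF+ROSI mouse 3, 4 of 10 genes were below 0 with the span of 0.3. For cHF+F versus cHF+ROSI all 10 genes were above 0 (median 0.14) with a span of 0.3, against 53.9% of all probes. With the narrower span the count was 4 of 10 (median -0.0022), against 52.6% of all probes, and without cHF+ROSI mouse 3 it was 5 of 10 with the wider one. Here too the other bright probes had medians of 0.13 and -0.00072 with the wider and the narrower span.

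For cHF+F versus cHF the median was 0.03 with a span of 0.1, with 6 of 10 genes above 0, against 50.8% of all probes. Through the brightest probes, Myh2 was below 0, and Mylpf, Tnnc2 and Tnnt3 above 0, in this comparison with each of the scalings tried. These were both loess spans, median centring, no background correction, the processed signals of the scanner software, Cy5 alone and the log2 table of the authors. None of these values passed the test under any of them. Another Myh2 probe, A_52_P552036, went the other way in Cy5 alone, with means of 16.57 in the cHF+F mice and 16.24 in the cHF mice. For the third Myh2 probe, A_51_P395652, these means were 15.62 and 15.68.

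Each dye was also examined alone, after quantile normalisation between arrays. That step gives every array the same set of values, so the very brightest probes have little room to differ and a change there could be hidden. For Myh4 the SD within diets was 0.12 in Cy5, against 0.41 for the ratio with a span of 0.3. The dimmer Pvalb went the other way, with 1.06 against 0.23. Since 1 pool was labelled with Cy3 throughout, that channel gives a background for differences between sets of arrays. The median change over the 10 genes in Cy5 was 0.05 for cHF+F versus cHF and 0.09 for cHF+ROSI versus cHF, and the pool in Cy3 differed by 0.05 and 0.04 between the same arrays. For Pvalb the cHF+ROSI arrays were higher than the cHF arrays by 0.38 in Cy5 and by 0.43 in the pool. For the overlapping Myh2 probe A_52_P552036 the values were 0.77 ± 0.63 (SE) in Cy5 and 0.70 ± 0.58 in the pool. For both probes the difference in the animals and that in the pool were of like size. This was not so for every gene. The brightest Myh2 probe was at -0.08 ± 0.10 in Cy5 and at 0.21 ± 0.12 in the pool for cHF+F versus cHF. Each dye was normalised on its own, so these values do not divide the change of the ratio into parts. For Mylpf the same arrays differed by 0.35 ± 0.23 in Cy5 and by 0.09 ± 0.19 in the pool. In either dye 0 of 17 member probes were called (limma), against 0% of all probes.

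Of the 10 genes, 5 had more than 1 probe, which allowed the values of 1 gene to be set against each other. For this the means of diet and slide were removed and the span of 0.1 was used, and the 24 points share the pool. The probes of Myh2 varied together, with r = 0.935 between A_51_P225134 and A_52_P552036 (chr11:67013645-67013704), whose positions share 18 bases. The correlation was r = 0.84 between A_51_P225134 and the distant probe A_51_P395652 (chr11:67009004-67009168). With differences between slides kept, the overlapping probes still had r = 0.93, but A_51_P395652 had r = 0.49 and 0.301 with A_51_P225134 and A_52_P552036. Both Atp2a1 probes (r = 0.802; the second, A_51_P244856, at chr7:126239337-126239396) and both Myh4 probes (r = 0.793; the second, A_51_P338072, at chr11:67076527-67076586) also varied together.

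The Myh1 probes were less alike, with r = 0.696 between A_51_P192042 and A_51_P364788 (chr11:67025523-67026625). The third probe, A_52_P257638 (chr11:67040695-67040754), had r = 0.344 and 0.3 with them. This dim probe is named Myh1 by the scanner file only, and its coordinates run opposite to the gene, as they do for 0.347% of the probes of genes on the plus strand. The probes of Tnnt3 disagreed, with r = -0.17, so that the Tnnt3 values above depend on the probe. On slide 1 a probe each of Myh1 (A_51_P364788), Myh2 (A_51_P395652) and Atp2a1 (A_51_P244856) was low in all diets, with slide means of -1.29, -1.28 and -0.84 with a span of 0.3. The brightest probes of the same genes were not as low there.

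**Figure D4:**
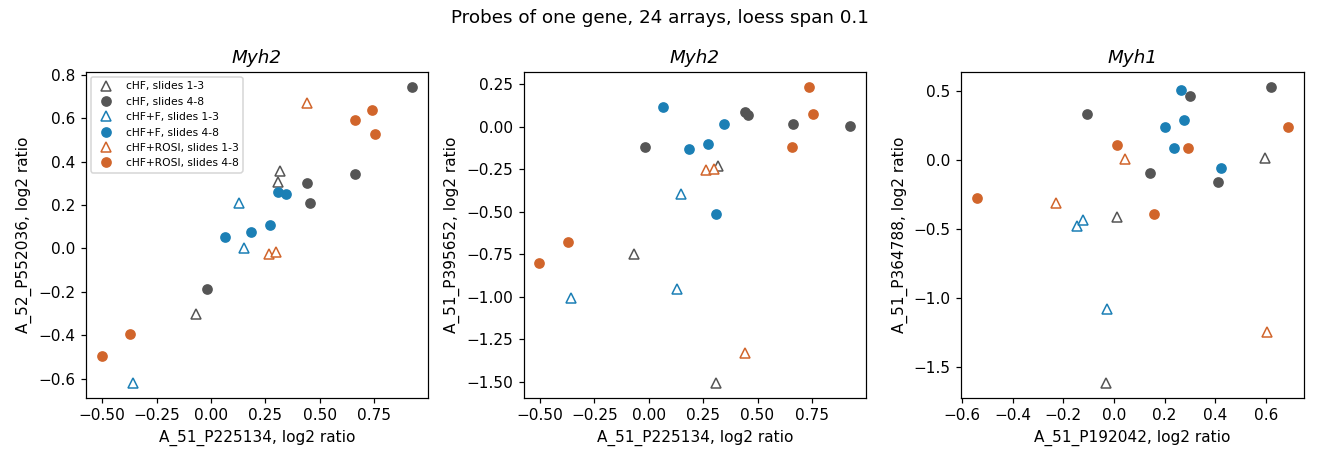
Log2 ratios of pairs of probes of Myh2 (left and middle) and Myh1 (right) on the 24 arrays (loess span 0.1), coloured by diet, with slides 1 to 3 as open triangles and slides 4 to 8 as filled circles. The overlapping Myh2 probes lie along a line, whereas several triangles fall far below the other points on the vertical axes of the middle and right panels.

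Across genes, the same residual values formed groups, given here as a description over 24 arrays. Myh4 varied with Atp2a1 (r = 0.88), Actn3 (r = 0.767) and Tnnt3 (r = 0.731 for the brighter probe), and Tnnc2 varied with Tnni2 (r = 0.699). Myh2 varied against Mylpf (r = -0.622) and had r = 0.235 with Myh4 and 0.424 with Atp2a1, each with the brightest probes. Over the 127 pairs of probes from different genes the median r was 0.215, and over the 9 pairs of probes from 1 gene it was 0.769. With a span of 0.3 and slide differences kept, the median over different genes was 0.533, with the differences between slides shared by all members, and r between Myh2 and Mylpf was 0.278.

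**Figure D5:**
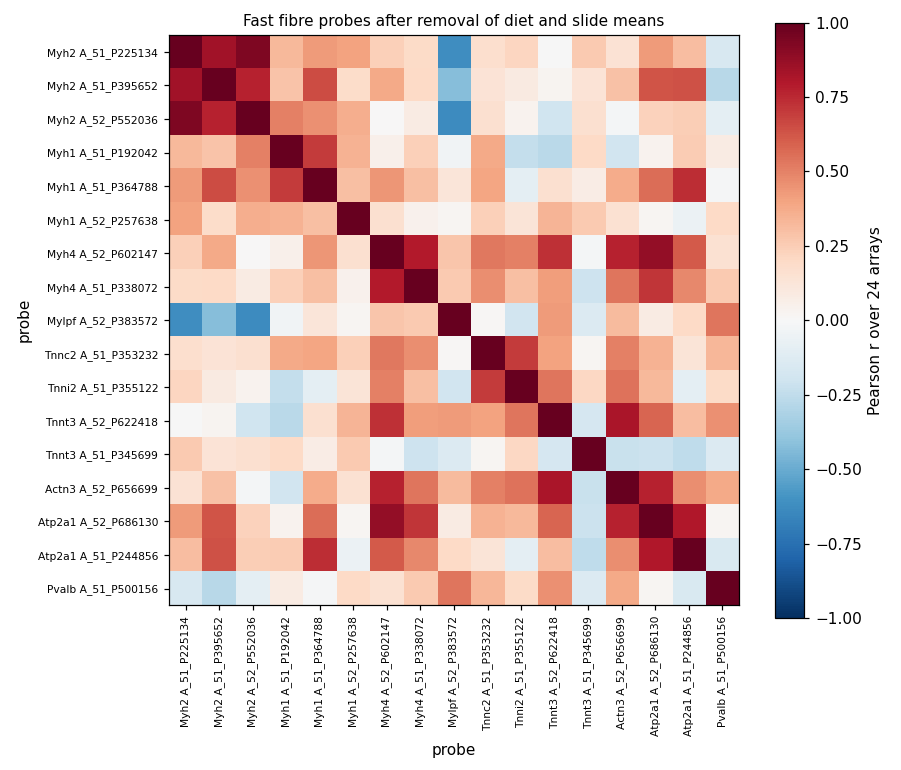
Pearson correlation over the 24 arrays between the 17 fast fibre probes after removal of diet and slide means (loess span 0.1), from blue (-1) through white (0) to red (1). Probes of Myh2 form a red block and are blue against Mylpf (-0.622 for the brightest Myh2 probe), and a second red block joins Myh4, Actn3, Atp2a1 and the brighter Tnnt3 probe.

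The slow fibre genes were measured on the same arrays and served as the counterpart. With diet and slide removed (span 0.1), Myh2 correlated positively with 11 of 12 slow genes (median r = 0.413), the highest being Casq2, the calsequestrin of slow and cardiac muscle (r = 0.656), and Atp2a2, the slow calcium pump (r = 0.547). The exception was Myl3, a slow light chain (r = -0.08). Myh1 correlated positively with 3 of 12 slow genes (median r = -0.05). For Myh4 the sign depended on the slides, with 11 of 12 positive (median r = 0.11) when slide means were removed and 3 of 12 (median r = -0.32) when they were kept. All these values share the 24 animals and the pool.

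Among the slow genes themselves, 0 of 12 were called in any comparison. At an unadjusted p under 0.05, 5 were lower and 0 higher in the cHF+F than in the cHF mice (median change -0.26), where 4.03% of all probes were lower and 2.84% higher at that threshold. The 3 with the smallest p were Tnni1, the slow inhibitory troponin, at -0.81 ± 0.29 (SE; adjusted p = 0.546, limma), Myh6, a cardiac heavy chain, at -0.75 ± 0.31 (adjusted p = 0.628), and Tnnc1, the slow calcium-binding troponin, at -0.70 ± 0.29 (adjusted p = 0.647). Their fast counterparts Tnni2 and Tnnc2 had values of 0.09 and 0.13 in the same comparison. For cHF+ROSI versus cHF, 0 slow genes reached the unadjusted threshold and the median was -0.17.

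Of 22 other fast fibre and sarcomere genes, 21 were measured and 0 were called. At an unadjusted p under 0.05, 4 were lower and 0 higher for cHF+F versus cHF, against 4.03% and 2.84% of all probes, with a median change of -0.00069. Among them, Mylk2, the kinase that phosphorylates the light chain encoded by Mylpf, had a median ratio of 0.21 (range -0.13 to 0.44) in the cHF mice. Its median was -0.25 (range -0.66 to 0.17) in the cHF+F mice and -0.09 (range -0.78 to 0.29) in the cHF+ROSI mice. The bulk of the cHF+F mice thus lay below that of the cHF mice, with overlap. The Mylk2 change was -0.40 ± 0.13 (SE) for cHF+F versus cHF (unadjusted p = 0.00516, adjusted p = 0.475, limma) and -0.30 ± 0.13 for cHF+ROSI versus cHF (adjusted p = 0.996). Lmod2, a leiomodin of the thin filament ends, was at -0.25 ± 0.10 and Smtnl1, a smoothelin-like protein, at -0.19 ± 0.08 for cHF+F versus cHF (adjusted p = 0.576 and 0.612). Mylk2 was also the 1 gene of this list below the unadjusted threshold for cHF+ROSI versus cHF, where 3% of all probes were lower.

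Of 15 regulators of fibre type, 13 were measured and 0 were called. The list holds regulators of fast and of slow, oxidative fibres, Ppargc1a and Mef2c being among the latter. For cHF+F versus cHF, 3 were higher and 0 lower at an unadjusted p under 0.05, against 2.84% and 4.03% of all probes. These were Eya1, a transcriptional cofactor, at 0.23 ± 0.08 (SE; adjusted p = 0.542, limma), Mef2c, a MEF2 factor, at 0.23 ± 0.09 (adjusted p = 0.612), and Ppargc1a, a coactivator that promotes mitochondrial biogenesis, at 0.28 ± 0.13 (adjusted p = 0.712). For cHF+ROSI versus cHF, 1 was lower, against 3% of all probes, namely Mef2d at -0.18 ± 0.09 (adjusted p = 0.996). Of 3 developmental and specialised myosin heavy chains, Myh3 and Myh8 were measured and neither reached the unadjusted threshold in any comparison without a block. With the slide as a block, Myh8 was at 0.19 ± 0.09 for cHF+F versus cHF+ROSI (unadjusted p = 0.0397, adjusted p = 0.358, limma). In that fit 13.1% of all probes had an unadjusted p under 0.05. With a span of 0.1 the Myh8 change was 0.0047.

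By correlation over the 24 arrays with the mean of the 10 genes (diet means removed, span 0.3), the most similar genes outside the group were Tmem38a, a cation channel of the sarcoplasmic reticulum (r = 0.953), Lrrc58 (r = 0.921), Acta1, skeletal muscle actin (r = 0.915), Eno3, the muscle enolase (r = 0.906), and Slc25a4, the ADP/ATP carrier of muscle mitochondria (r = 0.901). The narrower span gave for these genes correlations of 0.819, 0.86, 0.773, 0.543 and 0.738. The likeness depended on the span, since the 5 highest with the narrower span were Nfic (r = 0.872), Lrrc58 (r = 0.86), Itgb6 (r = 0.833), Dek (r = 0.828) and Add3 (r = 0.824), of which Lrrc58 alone was among the former. With slide means removed as well, the first 5 genes had r = 0.671, 0.754, 0.555, 0.0887 and 0.0601 in their order above. The points share the pool, the slides and the brightness of the probes.

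Markers of other cell types were detected as well, with 6 of 7 adipocyte, 4 of 4 endothelial and 5 of 5 tendon and fibroblast markers well above background on every array. The same held for 2 of 8 liver markers. The median over animals of the mean ratio of the adipocyte markers was -0.60 for cHF, -0.42 for cHF+F and -0.34 for cHF+ROSI, although 5 of the 7 genes had a lower mean for cHF+F than for cHF. The medians of the liver markers lay farther apart, at -0.85, -0.63 and 0.17 in the same order, with 5 of 5 measured genes higher for cHF+ROSI than for cHF. Among them Mup1, a major urinary protein, had means of -1.83, -1.16 and -0.32. The mean of the liver markers ranged over animals from -2.06 to -0.39 for cHF, -1.37 to 0.57 for cHF+F and -1.78 to 1.29 for cHF+ROSI. The diets thus overlapped, and the difference between these means was not tested. The sperm markers Prm1, Prm2 and Tnp1 had medians of -0.69, -0.84 and -0.11, although 0 of these 3 genes had a lower mean for cHF+F than for cHF. Their mean ranged over animals from -0.91 to -0.23 for cHF, -0.92 to 0.72 for cHF+F and -0.88 to 2.49 for cHF+ROSI. The part of these markers in the fast fibre values was not tested.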

How the data were processed

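Intensity and local background of each spot are given per channel on a linear scale in the deposited scanner files, as extracted, per the file headers, by Feature Extraction 10.5.1.1, together with signals that this software had background-subtracted and dye-normalized. The authors also deposited a table of normalized log2 values, of which 16 columns were used as an alternative and 8, those of a combined diet, were not used. Its scale is that of log2 Cy5 (median r = 0.99 with the matching group means), with column medians of 8.97 to 9.00, and its centring is not given in the sources used here. RNA came from single animals. Median spot intensity was corrected by normexp (offset 50), log2 ratios were normalized by loess (span 0.3) and spots of a probe were averaged. Flagged spots were set to missing, and probes were kept at a signal over background of at least 2 in both channels with at least 4 unflagged arrays per group. A single limma 3.58.1 model of 3 groups (R 4.3.3, data.table version 1.17.8) without a block was tested two-sided with Benjamini-Hochberg adjustment over all kept probes. The model was also run on simulated data, which were drawn without differences between slides. Python 3.11.15, pandas 2.3.3 and matplotlib 3.10.9 served for sequences and figures. Alternatives were the loess span, Cy5 alone, median centring, background correction, spot summary, processed signals, filters, saturated spots, array weights, the slide as a block, the methods' t-test, the mean over probes, the authors' table and leaving out each array. A further 3 were added after seeing the data, namely a span of 0.1 without cHF+ROSI 3, a span of 0.1 with the slide block, and slides 4 to 8 alone. All 10 genes were named, each carried by its brightest probe, with up to 3 genes of each other list by smallest p and the 5 genes with the most similar pattern. The genes and lists were chosen with earlier results of these data known. Symbols came from the accession or, for 1 member probe, from the scanner file. Probe positions are those of the files (mm8) and promoters those of RefSeq on GRCm38.p6.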

Additional observations from a re-analysis of the deposited data

Results flagged for a closer look

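In 51 sets of 8 arrays (17 probes in 3 diets), 5 had an array far from the others, judged by the gap to the nearest array over the whole range of the group against Dixon's 95% critical value. Chance alone flags about 1 in 20 such sets. Probe A_51_P364788 of Myh1 was low on slide 1, with a log2 ratio of -1.59 in cHF mouse 1 against -0.40 for the next array (gap over range 0.562) and of -1.22 in cHF+ROSI mouse 1 against -0.40 (0.566). Probe A_51_P244856 of Atp2a1 was low on the same slide, with -1.05 in cHF mouse 1 against -0.38 (0.636). Probe A_52_P552036 of Myh2 was at -0.64 in cHF+F mouse 2 against -0.03 (0.628), and the brightest Myh2 probe was lowest in the same mouse, with a gap over range of 0.6 when the loess span was 0.1. Actn3 was at -1.02 in cHF+ROSI mouse 3 against -0.25 (0.562). With a span of 0.1 that array was no longer far from the others in Actn3, whereas the other 4 were.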

How the results depend on the processing

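No member probe was called under the 40 alternatives that gave a count for cHF+F versus cHF or the 39 for each other comparison, 24 of which left out 1 array, and the lowest adjusted p of a member gene over them was 0.242. For the median change over the 10 genes, leaving out each array gave -0.0396 to 0.14 for cHF+F versus cHF, -0.19 to 0.00468 for cHF+ROSI versus cHF and -4.07e-06 to 0.20 for cHF+F versus cHF+ROSI. The other settings gave -0.0729 to 0.0726, -0.26 to 0.0941 and -0.0777 to 0.32. The count of called probes over the whole array was 0 for cHF+F versus cHF and became 2 with mean spot signals, 3 without the filter on dim probes, 12 with array weights and 6 with the slide as a replicate block. It ranged from 0 to 2 when an array was left out (without cHF 8 it was 1 and without cHF+F 8 it was 2), and from 0 to 2 for cHF+F versus cHF+ROSI (without cHF+F 7 it was 1 and without cHF+ROSI 7 it was 2). The replicate number in the labels equals the slide. Arrays of 1 slide deviated together in part, with correlations of -0.11 to 0.64 (median 0.25) over 24 pairs and 18 above 0.1. Over 168 pairs from different slides the median was -0.05, with 39 above 0.1. The number thus marks a shared slide, and whether it also pairs the animals cannot be told from these values. Every slide held 1 array of each diet and no member spot was flagged. The replicate block therefore could not move the median changes of 0.07, -0.12 and 0.14. It changed no other call. Chosen after seeing the data, a span of 0.1 with the replicate block gave 7 called probes for cHF+F versus cHF and 1 for cHF+ROSI versus cHF, 0 of them from a member gene. In the log2 table of the authors, which covers cHF+F versus cHF only, 0 of 19387 probes were called and 2396 had an unadjusted p under 0.05.

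Of 400 gene values under settings other than leaving out an array, 73 had the opposite sign, and none of them was called. With a loess span of 0.1, the log2 changes of opposite sign were Atp2a1 -0.0295 for cHF+F versus cHF, Myh4 0.00396, Tnni2 0.10, Tnnt3 0.0920, Mylpf 0.0801, Atp2a1 0.0199 and Actn3 0.0254 for cHF+ROSI versus cHF, and Myh2 -0.15, Myh4 -0.00152, Tnnc2 -0.0285, Tnni2 -0.0562, Atp2a1 -0.0494 and Pvalb -0.00282 for cHF+F versus cHF+ROSI. In Cy5 alone, the log2 changes of opposite sign were Myh1 0.0618, Myh4 -0.0226 and Pvalb 0.13 for cHF+F versus cHF, Myh1 0.23, Tnni2 0.11, Tnnt3 0.00744, Mylpf 0.44, Atp2a1 0.0580, Pvalb 0.38 and Actn3 0.0820 for cHF+ROSI versus cHF, and Myh1 -0.17, Myh2 -0.0709, Myh4 -0.00423, Tnnc2 -0.15, Tnni2 -0.0844, Mylpf -0.0856, Atp2a1 -0.0158 and Pvalb -0.25 for cHF+F versus cHF+ROSI. With median centring in place of loess, the log2 changes of opposite sign were Myh4 -0.0968, Tnni2 -0.0490, Atp2a1 -0.12 and Actn3 -0.0177 for cHF+F versus cHF, Tnni2 0.0342, Tnnt3 0.0131 and Mylpf 0.0536 for cHF+ROSI versus cHF, and Myh1 -0.0495, Myh2 -0.17, Myh4 -0.0271, Tnnc2 -0.0797, Tnni2 -0.0832, Tnnt3 -0.000673, Atp2a1 -0.0835 and Pvalb -0.0829 for cHF+F versus cHF+ROSI. Without background correction, the log2 changes of opposite sign were Myh4 -0.0109 and Atp2a1 -0.0416 for cHF+F versus cHF, Tnni2 0.0911, Tnnt3 0.0816, Mylpf 0.0659, Atp2a1 0.0111 and Actn3 0.0116 for cHF+ROSI versus cHF, and Myh2 -0.15, Myh4 -0.00370, Tnnc2 -0.0334, Tnni2 -0.0557, Atp2a1 -0.0526 and Pvalb -0.00991 for cHF+F versus cHF+ROSI. With the processed signals of the scanner software, the log2 changes of opposite sign were Myh4 -0.0426, Tnni2 -0.0179 and Atp2a1 -0.0120 for cHF+F versus cHF, Tnni2 0.0291, Tnnt3 0.0625, Mylpf 0.0305 and Atp2a1 0.00449 for cHF+ROSI versus cHF, and Myh2 -0.13, Tnnc2 -0.0294, Tnni2 -0.0470, Atp2a1 -0.0165 and Pvalb -0.000891 for cHF+F versus cHF+ROSI. With array weights, the log2 changes of opposite sign were Atp2a1 -0.00158 for cHF+F versus cHF, and Tnnc2 -0.25 for cHF+ROSI versus cHF. When each array was left out in turn, the log2 changes that turned in sign ranged as Myh4 -0.0695 to 0.12, Tnni2 -0.0288 to 0.16 and Atp2a1 -0.0827 to 0.0713 for cHF+F versus cHF. The ranges were Mylpf -0.14 to 0.0811, Tnnc2 -0.0681 to 0.16, Tnni2 -0.17 to 0.12, Tnnt3 -0.16 to 0.0736, Actn3 -0.21 to 0.00520 and Atp2a1 -0.20 to 0.00416 for cHF+ROSI versus cHF. The ranges were Myh1 -0.00970 to 0.24, Myh2 -0.10 to 0.14, Tnnc2 -0.0286 to 0.19, Tnni2 -0.0332 to 0.21 and Atp2a1 -0.000987 to 0.18 for cHF+F versus cHF+ROSI. Array cHF+ROSI 3 was among the arrays left out in most of these, with 6 of 10 genes above 0 for cHF+ROSI versus cHF without it. The cause of the turns in sign was not tested. Precision is limited by having 8 arrays per diet, and place on the slide, fixed for each diet, cannot be told apart from the diets.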
